A study of Mus musculus with 21 samples.

Results

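The comparison concerns untreated mouse dorsal root ganglia, the paired ganglia along the spine that house the cell bodies of sensory neurons, were deposited under 2 kinds of library name. The 6 libraries whose names end in LDRG were set against the 3 con/ko libraries whose names carry the letter L, 9 of the 21 libraries of the series. The LDRG set held 3 libraries of mice with floxed Tmem45b and Cre recombinase driven by Mrgprd (Tmem45b-flox::Mrgprd-cre, here cKO) and 3 of mice with floxed Tmem45b alone (Tmem45b-flox, here flox). The L-coded set held 1 cKO library and 2 flox libraries. Titles and library names give these genotypes, whereas the genotype field of the labels reads Tmem45b-flox::Mrgprd-cre for every library, flox ones included. All 9 are labelled without treatment, every mouse carried the floxed Tmem45b allele, and Cre in the cKO mice was driven by Mrgprd, a receptor gene of a class of nonpeptidergic pain-sensing neurons. The labels give no age, do not spell out the letters L, C, F and M in the con/ko names, and do not say which spinal levels were taken. Nor do they say whether each library is a separate animal; the p-values therefore rest on the spread among the libraries, part of which may be technical. The LDRG libraries lie in the deposited table that also holds 8 libraries of a CFA model (taken here as complete Freund's adjuvant, which induces inflammation), and the L-coded libraries in a second table with 4 untreated C-coded libraries. Name set and table therefore cannot be told apart in the main comparison, and the C-coded and CFA libraries are given beside a result where they bear on it. Values below are in CPM, a gene's share of a library's counts, on one scale for all 21 libraries. The 6 LDRG values are listed as cKO libraries 1, 2 and 3 and then flox libraries 1, 2 and 3, and the 3 L-coded values as the cKO library (M-coded), the F-coded flox library and the M-coded flox library.

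A dorsal root ganglion holds several classes of sensory neuron wrapped by satellite glia, with Schwann cells along their axons, and it sits inside the vertebral column, next to bone with its marrow and to the meninges. Bulk RNA of a dissected ganglion can therefore hold RNA of blood, marrow, connective tissue and muscle beside that of neurons and glia. Hox genes, which record the position of a cell along the body axis, are read in order along their clusters, and the high-numbered members are used only in the rear part of the trunk.

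Of the 24381 genes present in both tables, 16835 passed the filter on low counts and were tested, with genotype as a covariate. By the edgeR quasi-likelihood test, with p adjusted over all genes by Benjamini and Hochberg, 7416 genes (44.1% of those tested) differed between the sets at an adjusted p under 0.05. They comprised 3594 genes (21.3%) that were higher and 3822 (22.7%) that were lower in the LDRG libraries. These shares are the background for each list count below. For 6934 genes (41.2%) the 6 LDRG libraries and the 3 L-coded libraries did not overlap. With the 4 cKO libraries alone 3288 genes were called, and without both M-coded L libraries 3241. The sizes were unequal: 1442 genes were called at least 2-fold lower in the LDRG libraries and 85 at least 2-fold higher, and 370 were at least 10-fold lower against 15 at least 10-fold higher. The median log2 difference (LDRG minus L-coded throughout) over all genes tested was -0.0174. The genes called at least 10-fold lower took 0.0142% to 0.0195% of the counts in the LDRG libraries, against 1.1%, 0.442% and 0.803% in the L-coded libraries.

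Library totals were 62032865 to 72392133 counts in the LDRG set and 64492499 to 65080160 counts in the L-coded set. The first principal component of the 1000 most variable genes held 56.5% of their variance and placed the LDRG libraries at -38.1 to -29.2 and the L-coded libraries at 52.8 to 79.2. No pair of libraries of one group agreed within sampling noise (chi-square per degree of freedom 26.1 to 47.6). Xist, the RNA that coats a silenced X chromosome, lay at 0.101 to 0.33 CPM in the LDRG libraries, against 0.0895, 317 and 0 CPM in the L-coded libraries, and the Y-linked Ddx3y at 75 to 91.3 CPM against 73, 0 and 85.3 CPM. The F-coded L library thus stood apart from the other 8. Without it and without the genes of the sex chromosomes, 6412 genes were called.

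Tmem45b, which encodes a transmembrane protein and is the targeted gene (chromosome 9, 31426196 to 31464462, minus strand, mm10), was measured at 67.8, 72.3, 60.1, 124, 132 and 146 CPM in LDRG libraries, against 85.6, 179.5 and 156 CPM in L-coded libraries. Within each set the cKO libraries lay below the flox libraries (log2 difference between the genotypes, cKO minus flox, -0.995, SE 0.071, adjusted p = 0.0041, or 0.136 with the replicate number as a block). Tmem45b was also lower in the LDRG set at equal genotype (log2 difference -0.34, SE 0.07, adjusted p = 0.00515) but was not called with all 21 libraries in the fit (-0.39, adjusted p = 0.191). In the CFA libraries of that fit Tmem45b lay at 108.7, 105.7, 67.8 and 62 CPM in cKO libraries 1 to 4. CFA flox libraries 1 to 4 had 66.1, 116.2, 135.9 and 80.4 CPM, so the genotypes overlapped. The part of this overlap in the lost call was not tested. Mrgprd, the receptor gene that drives the Cre, lay at 147, 148, 153, 137, 125 and 130.4 CPM in LDRG libraries, against 128, 128 and 139 CPM in L-coded libraries. Its groups overlapped and it was not called (log2 difference 0.07, SE 0.06, adjusted p = 0.379).

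Red blood cell transcripts were lower in the LDRG ganglia. All 12 genes of the list (haemoglobins, the band 3 anion exchanger Slc4a1, haem synthesis and membrane skeleton genes) were lower, with a median log2 difference of -6.41. Their summed level was 35 to 54.9 CPM in the LDRG libraries, against 1668 to 4598 CPM in the L-coded libraries. The alpha-globin gene Hba-a2 had 12.1, 10.5, 11.9, 12.1, 8.69 and 8.89 CPM in LDRG libraries, against 1026, 388 and 781 CPM in L-coded libraries (log2 difference -6.13, SE 0.23, adjusted p = 2.26e-06). No LDRG library reached 15 CPM for it. Hbb-bt, a beta-globin gene, had 6.67, 7.08, 7.79, 8.73, 5.47 and 5.08 CPM in LDRG libraries, against 837, 297 and 653 CPM in L-coded libraries (log2 difference -6.48, SE 0.28, adjusted p = 4.37e-06). Slc4a1, which encodes band 3, had 0.403, 0.569, 0.248, 0.171, 0.273 and 0.328 CPM in LDRG libraries, against 159, 43 and 110.2 CPM in L-coded libraries, a difference of -8.38. Hba-a1 and Hbb-bs, near-identical partners of Hba-a2 and Hbb-bt, differed by -6.12 and -6.11, and reads may be split uncertainly within each pair. All 4 haemoglobin genes lay higher in the C-coded libraries than in the LDRG libraries (Hba-a2 412 to 699 CPM), and in between in the CFA libraries of the LDRG table (49.8 to 149 CPM).

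All members of the list moved together, and the promoters of 2 of these globin genes are shown. They were picked among members whose promoter matched the GATA motif GATAAG. Each runs 250 bases before to 50 after the start (RefSeq, GRCm38.p6), with GATAAG in capitals. Hba-a2 lies at chr11:32296242-32296541 on the plus strand and Hbb-bt at chr7:103813874-103814173 on the minus strand.
Hba-a2: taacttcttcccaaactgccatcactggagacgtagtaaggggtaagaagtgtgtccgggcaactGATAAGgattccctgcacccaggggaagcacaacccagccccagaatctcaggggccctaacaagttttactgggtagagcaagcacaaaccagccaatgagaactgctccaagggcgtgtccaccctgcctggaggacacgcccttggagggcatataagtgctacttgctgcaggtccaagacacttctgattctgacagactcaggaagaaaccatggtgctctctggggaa
Hbb-bt: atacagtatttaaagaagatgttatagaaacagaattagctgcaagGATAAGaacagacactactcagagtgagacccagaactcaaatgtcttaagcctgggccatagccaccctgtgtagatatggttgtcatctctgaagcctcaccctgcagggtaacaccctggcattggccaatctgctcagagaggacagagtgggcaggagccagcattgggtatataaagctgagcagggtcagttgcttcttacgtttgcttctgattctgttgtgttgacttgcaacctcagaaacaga
GATAAG, searched on both strands, was found in 6 of the 9 red blood cell genes with a promoter in the table and in 7.43% of 27025 promoters of the same length. The spelling AGATAA, which can overlap GATAAG, was found in 4 of the 9 and in 11.4% of all. These and the other spellings counted below were chosen after the differences were known, and a match is a description of letters.

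Neutrophil transcripts showed the largest differences of any list. All 15 were lower in the LDRG ganglia (median -8.38), and their summed level was 4.54 to 9.75 CPM in the LDRG libraries, against 631 to 3184 CPM in the L-coded libraries. Members near 0 in the LDRG libraries, such as Ly6g, passed the count filter only through the L-coded libraries, which largely fixed their direction. Mmp8, the neutrophil collagenase, had 0.202, 0.128, 0.166, 0.114, 0.0718 and 0.157 CPM in LDRG libraries, against 45.7, 18.4 and 41 CPM in L-coded libraries (log2 difference -8.04, SE 0.29, adjusted p = 1.91e-06). S100a9, a subunit of calprotectin, had 1.69, 1.64, 0.695, 1.31, 1.15 and 0.856 CPM in LDRG libraries, against 639, 120.3 and 318 CPM in L-coded libraries (log2 difference -8.20, SE 0.41, adjusted p = 8e-06). Every LDRG library lay below 2 CPM for S100a9, and the cKO L-coded library was the highest and the F-coded flox library the lowest of the L-coded set. The granule proteins Ltf (lactoferrin), Camp (cathelicidin) and Ngp differed by -10.80, -8.84 and -8.38, and the chitinase-like Chil3 by -7.13. Mmp9, a gelatinase, lay at 0.474 to 0.695 CPM in LDRG libraries, against 25.4 to 86.1 CPM in L-coded libraries. Ly6g, the neutrophil surface antigen, had no count in any of the 6 LDRG libraries and 4.71, 2.21 and 5.2 CPM in the L-coded libraries, at least 553-fold lower at a floor of 3 counts over the 6 LDRG libraries. If fragments were counted more than once, which was not tested, this floor stands for fewer than 3 fragments, and it and the bounds below are too generous.

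Precursor genes of blood cells, normally used in bone marrow and hardly in circulating blood, followed the same order. Their lists were added after values were seen. Members near 0 in the LDRG libraries passed the count filter only through the L-coded libraries. The direction of such members in the counts below was therefore largely fixed by the filter. Of 8 granulocyte precursor genes 7 were lower (median -6.84, summed level 5.63 to 10.5 CPM in the LDRG libraries, against 32.9 to 237 CPM in the L-coded libraries). Elane, neutrophil elastase, had 0, 0, 0, 0.057, 0 and 0 CPM in LDRG libraries, against 42.6, 3.91 and 10.2 CPM in L-coded libraries (log2 difference -10.76, SE 0.77, adjusted p = 3.65e-05). Mpo, myeloperoxidase, had 0, 0.284, 0.232, 0.185, 0.373 and 0.442 CPM in LDRG libraries, against 108, 11.5 and 37.5 CPM in L-coded libraries, a difference of -7.54. Ctsg, cathepsin G, had no count in the LDRG libraries and 11.5, 1.23 and 3.45 CPM in the L-coded libraries, at least 738-fold lower. Of 9 erythroid precursor genes 7 were lower (median -5.42). Their summed level overlapped, at 540.1 to 638 CPM in the LDRG libraries, against 555 to 715 CPM in the L-coded libraries. Most of that sum came from the transferrin receptor gene Tfrc and the water channel gene Aqp1, also used outside blood, which were not called. The transcription factor genes Gata1 and Klf1 lay at 0 to 0.0864 CPM in LDRG, 1.17 to 5.83 CPM in L-coded libraries and at 0 to 0.259 CPM in LDRG, 1.08 to 5.39 CPM in L-coded libraries. All 10 B-cell precursor genes tested were lower (median -6.19), with Rag1, a subunit of the V(D)J recombinase, at 0.0711 to 0.228 CPM in LDRG libraries, against 2.21 to 4.29 CPM in L-coded libraries. The cell cycle list, 16 of 16 lower with a median of -2.02, moved with them: Mki67, the proliferation marker, had 3.6, 4, 3.87, 4.57, 3.85 and 5.17 CPM in LDRG libraries, against 71.4, 23.2 and 50.1 CPM in L-coded libraries (log2 difference -3.52, SE 0.28, adjusted p = 5.26e-05), and Top2a lay at 3.27 to 4.95 CPM in LDRG libraries, against 13.6 to 42.2 CPM in L-coded libraries. The C-coded libraries did not share that level of cell cycle RNA (Mki67 3.26 to 10 CPM; summed level 35.4 to 55.8 CPM, against 89 to 269 CPM in the L-coded libraries). Without both M-coded L libraries, 8 of the cell cycle genes were called lower (median -1.25), while all 15 neutrophils list genes still were.

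Among other leukocyte genes, all 10 of the eosinophils, basophils and mast cells list were lower (median -5.38). Epx, eosinophil peroxidase, had no count in the LDRG libraries and 8.89, 3.49 and 6.63 CPM in the L-coded libraries, at least 866-fold lower, and the eosinophil granule gene Prg2 lay at 0.143 to 0.49 CPM in LDRG libraries, against 16.7 to 44.8 CPM in L-coded libraries. Of 15 lymphocyte genes 11 were lower (median -2.28), with the B-cell receptor component Cd79a at 0.228 to 0.503 CPM in LDRG libraries, against 4.52 to 7.34 CPM in L-coded libraries. Of 8 immunoglobulin and plasma cell genes tested 7 were lower (median -6.46), and of 67 immunoglobulin V gene segments tested 57 were lower and none higher (median -7.59). Genes and segments near 0 in the LDRG libraries passed the count filter only through the L-coded libraries. The direction of these counts was therefore largely fixed by the filter. Igkc, the kappa constant region, had 0.187, 0.157, 0.0662, 0.057, 0.0575 and 0.0713 CPM in LDRG libraries, against 30.8, 9.2 and 16.8 CPM in L-coded libraries (log2 difference -7.72, SE 0.27, adjusted p = 1.91e-06). Of 8 platelet and megakaryocyte genes 6 were lower (median -2.42), with the platelet chemokine gene Ppbp at 0.0996 to 1.41 CPM in LDRG libraries, against 3.19 to 18.8 CPM in L-coded libraries.

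**Figure D1:**
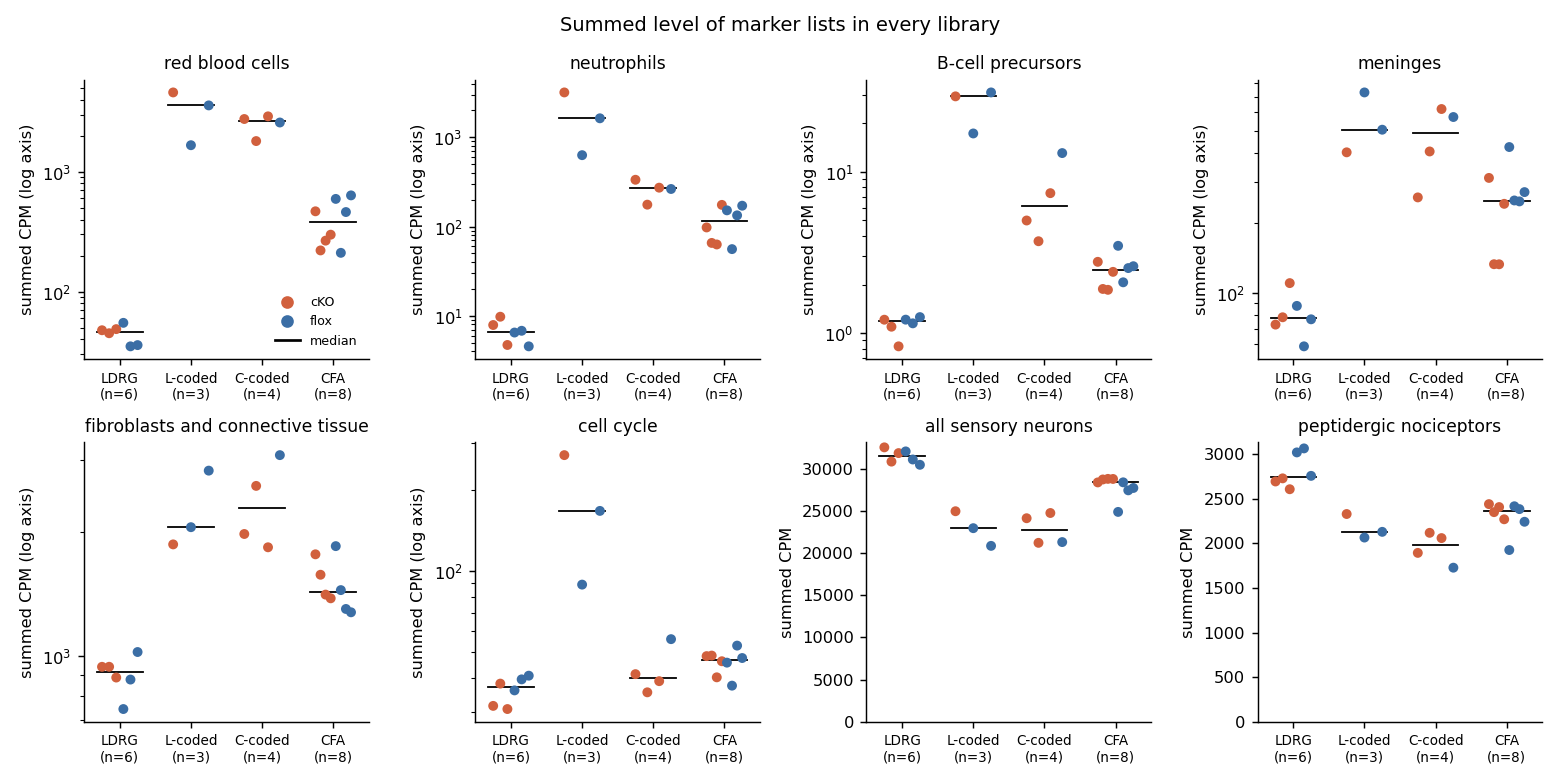
Points are single libraries (red cKO, blue flox) and bars medians of the summed CPM of 8 marker lists in the 6 LDRG, 3 L-coded, 4 C-coded and 8 CFA libraries; 6 panels have a log axis and both neuron panels a linear one from 0. The LDRG libraries lie below all L-coded libraries for the blood, marrow, meningeal, connective tissue and cell cycle lists and above them for both neuron lists.

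Macrophage genes were lower by a smaller amount. All 15 were lower (median -1.54), with a summed level of 104 to 129 CPM in the LDRG libraries, against 337 to 834 CPM in the L-coded libraries. Csf1r, the receptor for colony-stimulating factor 1 and a general macrophage marker, had 14.4, 13.7, 15.8, 12.2, 12.5 and 16.4 CPM in LDRG libraries, against 41.8, 31.2 and 45.2 CPM in L-coded libraries (log2 difference -1.49, SE 0.13, adjusted p = 6.96e-05). Lyz2, lysozyme, which neutrophils also express, lay at 29.1 to 42.1 CPM in LDRG libraries, against 161 to 508 CPM in L-coded libraries, and the complement gene C1qc at 7.54 to 10.5 CPM in LDRG libraries, against 16.9 to 32.6 CPM in L-coded libraries. Without both M-coded L libraries, 9 of the 15 macrophages list genes were called. All 7 MHC class II genes were lower (median -0.909), with H2-Ab1 at 13.8 to 24.3 CPM in LDRG libraries, against 40.8 to 74.2 CPM in L-coded libraries. Of 13 MHC class I genes 2 were lower, the immunoproteasome subunit Psmb9 (-0.76) and the class Ib gene H2-Q6 (-1.08), and none higher. Without the cKO L library neither Psmb9 (-0.51, adjusted p = 0.101) nor H2-Q6 (-1.22, adjusted p = 0.0504) was called, and H2-Q6 was not called without the F-coded one either.

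Genes of the ganglion's coverings were lower too. All 12 meninges genes were lower in the LDRG libraries (median -2.36; summed level 58.8 to 110.1 CPM in the LDRG libraries, against 403 to 729.6 CPM in the L-coded libraries). Ptgds, prostaglandin D synthase, had 26.2, 34, 57.2, 40.7, 17.2 and 24.2 CPM in LDRG libraries, against 267, 382 and 309 CPM in L-coded libraries (log2 difference -3.34, SE 0.33, adjusted p = 0.000103). Slc47a1, an organic cation exporter, had 2.84, 2.18, 2.53, 2.29, 1.97 and 1.85 CPM in LDRG libraries, against 15.4, 25.7 and 24.2 CPM in L-coded libraries (log2 difference -3.26, SE 0.19, adjusted p = 1.93e-05). Both sets were apart for both genes. Igf2, a growth factor of meningeal and other mesenchymal cells, had 0.36, 0.0854, 0.116, 0.0997, 0.0287 and 0.2 CPM in LDRG libraries, against 1.88, 172 and 3.94 CPM in L-coded libraries (log2 difference -7.66, SE 1.61, adjusted p = 0.00454). Without the F-coded flox library, which held most of it, the difference for Igf2 was -4.32. The C-coded libraries lay at the L-coded level for the meninges list (258 to 619 CPM), unlike for the cell cycle list.

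Of 18 fibroblast and connective tissue genes 16 were lower (median -1.38; summed level 745 to 1025 CPM in the LDRG libraries, against 1871 to 2826 CPM in the L-coded libraries). Fn1, fibronectin, had 22.8, 19.7, 23.8, 20.9, 15.8 and 27.4 CPM in LDRG libraries, against 176, 163 and 220.0 CPM in L-coded libraries (log2 difference -3.10, SE 0.16, adjusted p = 9.21e-06). Col1a1, the alpha-1 chain of type I collagen, had 63.2, 63.9, 55.5, 44.5, 66.5 and 72.9 CPM in LDRG libraries, against 228, 148 and 202 CPM in L-coded libraries (log2 difference -1.67, SE 0.16, adjusted p = 9.48e-05). Of 14 endothelium genes 7 were lower and 1 higher (median -0.376), with von Willebrand factor, Vwf, at 13.8 to 19.1 CPM in LDRG libraries, against 47.6 to 72.9 CPM in L-coded libraries. Of 14 pericyte and smooth muscle genes 5 were lower (median -0.591), among them the smooth muscle protein gene Tagln at 4.65 to 6.22 CPM in LDRG libraries, against 9.4 to 14.6 CPM in L-coded libraries. Of 14 cartilage and bone genes tested 7 were lower (median -0.696). Bglap, osteocalcin, a product of bone-forming cells, had 0, 0.0284, 0, 0, 0 and 0 CPM in LDRG libraries, against 6.67, 0.312 and 0.347 CPM in L-coded libraries (log2 difference -8.93, SE 0.57, adjusted p = 2.32e-05), so that the cKO L-coded library held most of it. None of 10 adipocyte genes was called. Fabp4, a fatty acid carrier, lay at 0.441 to 16.6 CPM in LDRG, 7.62 to 10.4 CPM in L-coded libraries. Of 20 skeletal muscle genes 1 was lower, the slow myosin gene Myh7, with 0.0864, 0, 0.116, 0.185, 0.115 and 2.13 CPM in LDRG libraries, against 0.164, 0.327 and 103 CPM in L-coded libraries. Myh7 was at -0.002076 without the M-coded flox L library, and its call was lost without any of 3 LDRG libraries (cKO 2, flox 1 and flox 2). The muscle sum ranged over 97.1 to 967 CPM in the LDRG libraries, against 94 to 1346 CPM in the L-coded libraries, and the sets overlapped.

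Genes used by all sensory neurons were mostly higher in the LDRG ganglia. Of 19 genes used by all sensory neurons 13 were higher and none lower (median 0.303), and their summed level was 30490 to 32560 CPM in the LDRG libraries, against 20870 to 24980 CPM in the L-coded libraries. Stmn2, a microtubule regulator of axons, had 2024, 2063, 2088, 2118, 2124 and 2070 CPM in LDRG libraries, against 1461, 1462 and 1339 CPM in L-coded libraries (log2 difference 0.55, SE 0.04, adjusted p = 5.55e-05). Nefl, the light neurofilament subunit, had 6980, 6597, 6440, 6718, 6525 and 5905 CPM in LDRG libraries, against 4717, 4138 and 3812 CPM in L-coded libraries (log2 difference 0.61, SE 0.07, adjusted p = 0.000189). Isl1, a transcription factor of sensory neurons, had 123, 138, 129, 129.9, 136 and 114 CPM in LDRG libraries, against 89.6, 89.7 and 85.1 CPM in L-coded libraries (log2 difference 0.53, SE 0.06, adjusted p = 0.000212). For all 3 genes the lowest LDRG library lay above the highest L-coded one. Since CPM are shares of all counted RNA, they move against one another, and in bulk samples fewer cells of a type and less RNA per cell cannot be told apart. Both neuronal and non-neuronal levels differed, and the part of the one in the other was not tested.

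The neuron classes differed in their counts. Of 18 large A-fibre neuron genes (touch and position sense) 13 were higher and none lower (median 0.321). Etv1, a transcription factor of proprioceptors, had 204, 223, 226, 196, 196 and 194 CPM in LDRG libraries, against 115, 121 and 109.5 CPM in L-coded libraries (log2 difference 0.82, SE 0.05, adjusted p = 2.28e-05). Hapln4, a perineuronal matrix link protein, lay at 59.5 to 74.7 CPM in LDRG libraries, against 34.2 to 46.3 CPM in L-coded libraries. Of 15 peptidergic nociceptor genes 8 were higher and none lower (median 0.193). Tac1, the substance P precursor, had 319, 321, 331, 349.5, 367 and 330.5 CPM in LDRG libraries, against 252, 195 and 248 CPM in L-coded libraries (log2 difference 0.54, SE 0.09, adjusted p = 0.00103), Calca, the CGRP precursor, lay at 1328 to 1702 CPM in LDRG libraries, against 1049 to 1226 CPM in L-coded libraries, and Smr2 differed most, with 13.2, 12, 11.3, 15.2, 16.8 and 19.2 CPM in LDRG libraries, against 6.36, 3.56 and 4.23 CPM in L-coded libraries (log2 difference 1.63, SE 0.23, adjusted p = 0.000637). Adcyap1, the PACAP precursor, lay at 117 to 146 CPM in LDRG libraries, against 91.9 to 101 CPM in L-coded libraries.

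The list for the Mrgprd class showed no common direction. Of 17 nonpeptidergic Mrgprd neuron genes 2 were higher and 4 lower (median -0.0512; summed level 3674 to 4229 CPM in the LDRG libraries, against 3620 to 4028 CPM in the L-coded libraries). The higher members of this list were Mrgprx1, an itch receptor gene, and Cd55, a complement regulator (0.19). Mrgprx1 had 23.4, 23.4, 26.4, 26.6, 26.9 and 22.7 CPM in LDRG libraries, against 14.3, 15.3 and 15 CPM in L-coded libraries (log2 difference 0.76, SE 0.08, adjusted p = 0.000111). The lower ones included the lysophosphatidic acid receptor gene Lpar3 at 48.3 to 64.4 CPM in LDRG libraries, against 70.9 to 87.6 CPM in L-coded libraries and Tmem45b, given above. Of 15 itch neuron genes tested 4 were higher and 3 lower (median -0.0027). Trpa1, the irritant channel, lay at 76.3 to 102 CPM in LDRG, 71.1 to 72 CPM in L-coded libraries, and Nppb, the itch peptide precursor, at 3.48 to 5.69 CPM in LDRG, 7.47 to 9.98 CPM in L-coded libraries. Of 9 genes of C-low-threshold mechanoreceptors 1 was higher, the touch channel gene Piezo2 (0.19, adjusted p = 0.0405, a call lost when any of 7 of the 9 libraries was left out), and 2 lower (median -0.155). Th, tyrosine hydroxylase, had 50.5, 55.5, 51.6, 46.6, 52.5 and 68.5 CPM in LDRG libraries, against 88.5, 117 and 108 CPM in L-coded libraries (log2 difference -0.92, SE 0.11, adjusted p = 0.000285). Of 5 cold neuron genes Kcnk9, a two-pore potassium channel gene, was higher (0.42) and Foxp2, a transcription factor gene, lower (-1.01), while the cold receptor gene Trpm8 was not called (-0.08, adjusted p = 0.678). Differences between the classes were not tested.

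Potassium and sodium channel genes were called higher more often than lower, beside 21.3% higher and 22.7% lower over all genes tested. The TRP channel and ER calcium handling lists lay nearer those shares. Of 23 voltage-gated potassium channel genes 13 were higher and 2 lower (median 0.223), among them Kcnv1, a modifier subunit, with 72.1, 74.3, 66.3, 86.5, 83.6 and 72.3 CPM in LDRG libraries, against 42.4, 40 and 38 CPM in L-coded libraries (log2 difference 0.93, SE 0.08, adjusted p = 7.89e-05) and Kcnq3, a subunit of the M-current channel, at 69.1 to 73.8 CPM in LDRG libraries, against 49.7 to 53.8 CPM in L-coded libraries. Of 14 voltage-gated sodium channel genes 6 were higher and 1 lower (median 0.134). They included the accessory subunit gene Scn4b at 448 to 586 CPM in LDRG libraries, against 326 to 424 CPM in L-coded libraries and the nodal channel gene Scn8a at 227 to 292 CPM in LDRG libraries, against 193 to 222 CPM in L-coded libraries. Of 18 TRP channel genes 5 were higher and 3 lower (median 0.0154), with Trpc1, a receptor-activated cation channel gene, at 50.2 to 63 CPM in LDRG, 36.4 to 39 CPM in L-coded libraries. Of 27 ER calcium handling genes 8 were higher and 6 lower (median -0.0437): the calcium sensor gene Stim2 differed by 0.32, and Atp2a3, a calcium pump gene used in blood cells, by -2.

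**Figure D2:**
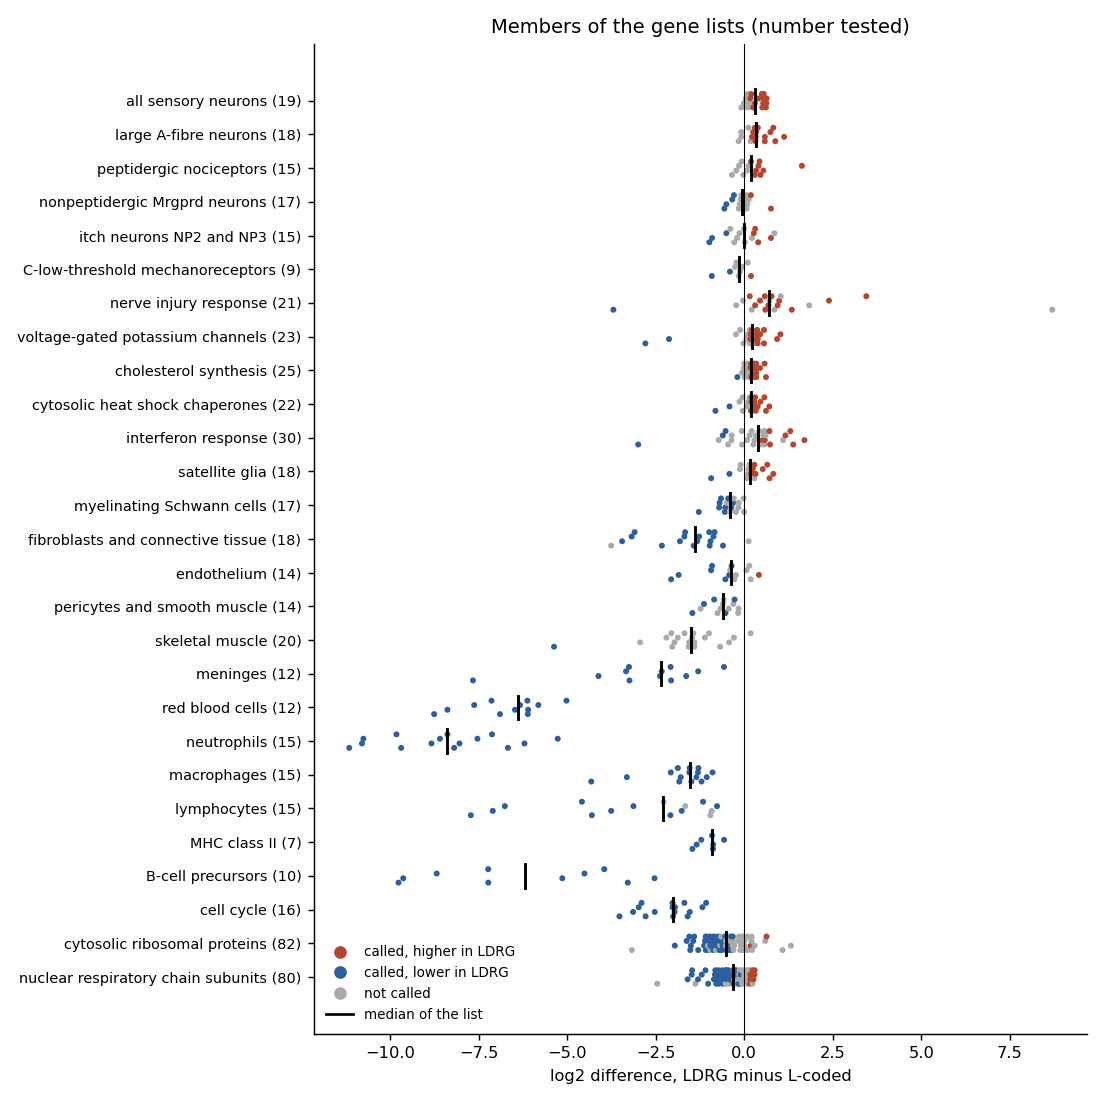
Each point is a gene of 1 of 27 lists at its log2 difference, LDRG minus L-coded (red called higher, blue called lower, grey not called), and the bar is the list median. The neutrophils and red blood cells lists lie furthest to the left at medians of -8.38 and -6.41, while the medians of the neuron lists at the top lie between -0.155 and 0.321.

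Glial lists went in different directions. Of 18 satellite glia genes 8 were higher and 2 lower (median 0.175). Kcnj10, the inward rectifier channel that buffers potassium, had 89.1, 82.8, 87.3, 81, 92.8 and 100.5 CPM in LDRG libraries, against 52.7, 59.9 and 59.8 CPM in L-coded libraries (log2 difference 0.65, SE 0.07, adjusted p = 0.000129), whereas Fabp7, a fatty acid carrier, lay at 91.2 to 144 CPM in LDRG libraries, against 139 to 301 CPM in L-coded libraries (log2 difference -0.94, SE 0.17, adjusted p = 0.00244). Of 17 myelinating Schwann cells genes 9 were lower and none higher (median -0.408), with Mbp, myelin basic protein, at 1267, 1330, 1254, 977, 1209 and 1040 CPM in LDRG libraries, against 1490, 2106 and 2102 CPM in L-coded libraries (log2 difference -0.70, SE 0.14, adjusted p = 0.00333), and Egr2, the myelination regulator, at 11.6 to 17.8 CPM in LDRG libraries, against 25.8 to 40.5 CPM in L-coded libraries. Between the cKO libraries alone, 2 of the myelinating Schwann cells genes were lower and 1 higher (median 0.0666); between the flox libraries alone 13 were lower. Of 10 nonmyelinating Schwann cell genes 3 were higher and 1 lower (median 0.0285); the lower one, Apod, an apolipoprotein gene, lay at 565 to 825 CPM in LDRG libraries, against 1255 to 1756 CPM in L-coded libraries. Of 13 genes of central glia of the spinal cord tested 2 were higher and 2 lower (median 0.00866), the lower ones being the connexin gene Gjb6 (-2) and the microglial gene Tmem119 (-2.19), and of 8 spinal cord neuron genes tested 1 was higher and 1 lower (median 0.178).

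Genes that rise in injured sensory neurons were mostly higher in the LDRG set. Of 21 nerve injury response genes tested (of 23 in both tables) 12 were higher and 1 lower (median 0.713; summed level 1230 to 1609 CPM in the LDRG libraries, against 1060 to 1112 CPM in the L-coded libraries). Gap43, a growth cone protein, had 251, 250.5, 247, 274, 285 and 307 CPM in LDRG libraries, against 186, 184 and 175 CPM in L-coded libraries (log2 difference 0.58, SE 0.06, adjusted p = 0.000132). Jun, the AP-1 transcription factor, had 124, 113, 117, 116, 135 and 139.5 CPM in LDRG libraries, against 84, 81.1 and 67.5 CPM in L-coded libraries (log2 difference 0.68, SE 0.09, adjusted p = 0.000455). Bdnf, the neurotrophin, had 67.3, 64.8, 59.9, 94, 85 and 68.9 CPM in LDRG libraries, against 37, 35.4 and 28.9 CPM in L-coded libraries (log2 difference 1.13, SE 0.14, adjusted p = 0.000351). In all 3 genes the sets were apart. Sprr1a, a protein induced by axon injury, ranged over 0.735, 2.7, 9.05, 2.98, 3.71 and 23.9 CPM in the LDRG libraries, against 1.16, 0.475 and 0.188 CPM in the L-coded libraries (log2 difference 3.45, SE 1.20, adjusted p = 0.0428), and overlapped; its call was lost without LDRG library cKO 3 or flox 2, or without either flox L-coded library. The exception in direction, Anxa1, which myeloid cells also express, lay at 3.59 to 8.33 CPM in LDRG libraries, against 30.7 to 97.1 CPM in L-coded libraries. Without the F-coded L library 7 of the nerve injury response genes were called higher, and without the M-coded flox library 6.

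Immediate early genes, which are switched on within minutes of a stimulus, split: of 30 genes 5 were higher and 11 lower (median -0.237). The lower ones included the growth factor-response genes Ccn1 and Ccn2 and the Krüppel-like factor gene Klf4. Ccn2 had 4.45, 5.79, 7.6, 4.13, 5.88 and 5.14 CPM in LDRG libraries, against 23.6, 25.7 and 25.8 CPM in L-coded libraries (log2 difference -2.21, SE 0.17, adjusted p = 4.78e-05), and Klf4 had 2.78, 3.31, 3.23, 3.1, 2.41 and 3 CPM in LDRG libraries, against 8.95, 8.82 and 11.2 CPM in L-coded libraries (log2 difference -1.71, SE 0.13, adjusted p = 4.85e-05). Both of these genes are also used by connective tissue or endothelial cells, whose lists were lower too, and the part of that in the result was not tested. Of 17 glucocorticoid and metallothionein response genes 11 were lower and 1 higher (median -0.566). Pdk4, a kinase that restrains glucose oxidation, had 6.86, 8.38, 7.21, 7.8, 6.74 and 7.26 CPM in LDRG libraries, against 14.2, 19.6 and 28.9 CPM in L-coded libraries (log2 difference -1.44, SE 0.18, adjusted p = 0.000326). Angptl4, an inhibitor of lipoprotein lipase, lay at 10.9 to 14.7 CPM in LDRG, 24.9 to 26.2 CPM in L-coded libraries; Lcn2 of this list is also a neutrophil granule gene (-6.21). Of 19 circadian clock genes 4 were higher and 5 lower (median -0.013), near the 21.3% and 22.7% of all genes tested. The clock repressor gene Per1 lay at 21.7 to 27 CPM in LDRG libraries, against 35.1 to 43.9 CPM in L-coded libraries. Nr1d1 lay at 13 to 19.1 CPM in LDRG libraries, against 24.1 to 28.2 CPM in L-coded libraries. Time of day and handling are not given in the labels, and their part was not tested.

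Chaperone genes were mostly higher. Of 22 cytosolic heat shock chaperones 13 were higher and 2 lower (median 0.203; summed level 7220 to 7484 CPM in the LDRG libraries, against 6210 to 6823 CPM in the L-coded libraries). Hsp90aa1, the inducible HSP90, had 721, 749, 723, 757, 799 and 749 CPM in LDRG libraries, against 521, 520.3 and 477 CPM in L-coded libraries (log2 difference 0.57, SE 0.05, adjusted p = 5.75e-05). Bag3, a co-chaperone of HSP70, had 292, 273, 288, 288, 307 and 282 CPM in LDRG libraries, against 200.2, 173 and 154 CPM in L-coded libraries (log2 difference 0.71, SE 0.07, adjusted p = 0.000135). Dnaja1 and Hsph1 differed by 0.61 and 0.46, so the members named differed by less than 2-fold. Most of this list moved together, and Bag3 is shown with its promoter (chr7:128523333-128523632, plus strand, RefSeq, GRCm38.p6). It was picked among higher members whose promoter matched the heat shock motif GAANNTTC, in capitals.
Bag3: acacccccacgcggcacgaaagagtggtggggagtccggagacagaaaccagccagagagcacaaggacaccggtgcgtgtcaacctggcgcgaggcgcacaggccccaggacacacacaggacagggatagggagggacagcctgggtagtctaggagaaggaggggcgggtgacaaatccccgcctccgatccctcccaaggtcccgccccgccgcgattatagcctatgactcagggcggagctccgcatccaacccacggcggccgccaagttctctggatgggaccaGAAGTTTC
GAANNTTC, a palindrome in its fixed letters, was found in 9 of the 18 chaperone genes with a promoter in the table, in 5 of the 11 called higher, and in 7.95% of all promoters. Of 20 unfolded protein response genes 4 were higher and 5 lower (median -0.0456), near the 21.3% and 22.7% of all genes tested. Dnajb9 lay at 48.6 to 57.1 CPM in LDRG, 33.6 to 35.5 CPM in L-coded libraries. The disulfide isomerase gene Pdia6 lay at 96.1 to 107 CPM in LDRG, 132 to 145 CPM in L-coded libraries. Of 38 proteasome subunits tested 16 were higher and 3 lower (median 0.106), with the ATPase subunit gene Psmc6 at 230.1 to 258 CPM in LDRG libraries, against 189.8 to 194 CPM in L-coded libraries.

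Lipid synthesis genes moved the same way. Of 25 cholesterol synthesis genes 15 were higher and 1 lower (median 0.199; summed level 4863 to 4950 CPM in the LDRG libraries, against 4006 to 4501 CPM in the L-coded libraries). Hsd17b7, an enzyme of the sterol pathway, had 118, 129.7, 123, 126, 126 and 119 CPM in LDRG libraries, against 82.1, 83.2 and 84.2 CPM in L-coded libraries (log2 difference 0.58, SE 0.04, adjusted p = 3.11e-05). Insig1, the feedback regulator of the pathway, had 163, 157, 166, 162, 154 and 151 CPM in LDRG libraries, against 95.6, 112 and 104 CPM in L-coded libraries (log2 difference 0.61, SE 0.06, adjusted p = 7.81e-05). Sqle, squalene epoxidase, lay at 305 to 329 CPM in LDRG libraries, against 252 to 282 CPM in L-coded libraries. Without both M-coded L libraries 5 of the cholesterol synthesis genes were called higher (median 0.146). Of 14 fatty acid synthesis genes 8 were higher and none lower (median 0.17). Me1, malic enzyme, had 110.2, 117, 110.5, 111, 121 and 113 CPM in LDRG libraries, against 75.7, 78.1 and 74.5 CPM in L-coded libraries (log2 difference 0.58, SE 0.04, adjusted p = 3.59e-05). Scd1, stearoyl-CoA desaturase, lay at 1308 to 1478 CPM in LDRG libraries, against 1097 to 1119 CPM in L-coded libraries.

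The interferon response list was divided by library rather than by set alone. Of 30 genes 8 were higher and 3 lower in the LDRG set (median 0.377; summed level 919.8 to 1481 CPM in the LDRG libraries, against 688 to 1296 CPM in the L-coded libraries). Ifit1, an interferon-induced RNA-binding protein, had 56.7, 122, 64.3, 137, 115 and 69.5 CPM in LDRG libraries, against 15.7, 63 and 21.3 CPM in L-coded libraries (log2 difference 1.70, SE 0.45, adjusted p = 0.014). The F-coded flox library lay within the LDRG range for Ifit1, and without the cKO L library Ifit1 was not called (1.35, adjusted p = 0.0817). Oasl2, an oligoadenylate synthetase-like protein, had 126, 176, 138, 194, 182 and 129 CPM in LDRG libraries, against 50.3, 88.4 and 49.5 CPM in L-coded libraries (log2 difference 1.38, SE 0.22, adjusted p = 0.000954). Ddx58, the RNA sensor RIG-I, lay at 54.2 to 75.9 CPM in LDRG libraries, against 33.1 to 54 CPM in L-coded libraries. Oas3, another member of that family, went the other way with 0.245, 0.398, 0.199, 0.598, 1.16 and 0.285 CPM in LDRG libraries, against 4.12, 3.4 and 3.76 CPM in L-coded libraries (log2 difference -3.00, SE 0.44, adjusted p = 0.000671). Without the F-coded L library 15 genes of the interferon response list were called higher and 1 lower, without the cKO L library 2 higher and 2 lower, and without both M-coded L libraries 1 higher and 1 lower (median -0.155). The promoter of Ifit1 (chr19:34640639-34640938, plus strand, RefSeq, GRCm38.p6), the member with the largest rise, is shown. It was picked among higher members whose promoter matched the interferon-stimulated element (GAAA, any 2 bases, GAAA). Capitals mark 2 matches, here in its reverse complement (TTTC, any 2 bases, TTTC).
Ifit1: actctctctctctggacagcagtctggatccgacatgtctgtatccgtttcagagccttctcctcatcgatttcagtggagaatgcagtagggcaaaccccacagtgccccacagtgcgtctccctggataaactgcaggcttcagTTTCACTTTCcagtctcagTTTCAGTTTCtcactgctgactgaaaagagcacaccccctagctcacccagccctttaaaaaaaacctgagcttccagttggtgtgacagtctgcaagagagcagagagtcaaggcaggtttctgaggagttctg
The motif was found in 13 of the 21 interferon response genes with a promoter in the table, in 3 of the 6 called higher and 1 of the 2 called lower, and in 3.49% of all promoters.

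Genes of ribosomal proteins and of the respiratory chain were called lower more often than higher. Of 82 cytosolic ribosomal protein genes tested 41 were lower and 2 higher (median -0.523; summed level 1315 to 1499 CPM in the LDRG libraries, against 1689 to 1890 CPM in the L-coded libraries). Rps3, a protein of the small subunit, had 104, 112, 109, 121, 118 and 109.8 CPM in LDRG libraries, against 213, 202 and 234 CPM in L-coded libraries (log2 difference -0.93, SE 0.05, adjusted p = 1.52e-05). Rpl32, of the large subunit, lay at 14.4 to 16.8 CPM in LDRG libraries, against 28.4 to 34.8 CPM in L-coded libraries. Ribosomal protein genes share sequence with many pseudogenes, so their counts are uncertain. Of 80 nuclear respiratory chain subunits tested 45 were lower and 7 higher (median -0.307). Atp5j, a subunit of ATP synthase, had 61.5, 57.5, 58.6, 58.8, 62.6 and 55.9 CPM in LDRG libraries, against 105, 106 and 101 CPM in L-coded libraries (log2 difference -0.82, SE 0.05, adjusted p = 1.42e-05). Ndufb1, of complex I, lay at 11.8 to 15.7 CPM in LDRG libraries, against 34.1 to 38.5 CPM in L-coded libraries. For Rps3, Rpl32, Atp5j and Ndufb1 the CFA libraries of the LDRG table lay at the LDRG level (99.8 to 113 CPM for Rps3) and the C-coded libraries at the L-coded level (200.2 to 242 CPM). Of 14 small nucleolar RNA host genes 6 were lower and 1 higher (median -0.345). Of 38 replication-dependent histones 4 were higher and none lower (median 0.124), a smaller share than the 21.3% of all genes tested. The 4 included H2bc4 at 49 to 57.9 CPM in LDRG libraries, against 33.2 to 35.1 CPM in L-coded libraries. Over protein-coding genes with a known length, the median difference was -0.19 in the shortest of 5 equal classes (0.306 to 2.42 kb of exon) and 0.0612 in the longest (7.46 to 117 kb). Of 3099 genes in each class, 319 were higher and 954 lower in the shortest, and 932 higher and 497 lower in the longest. The part of transcript length in the lists above was not tested.

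The 3 Hox genes numbered 10 that were tested, Hoxa10, Hoxc10 and Hoxd10, had counts in every LDRG and L-coded library and lay at no more than 0.164 CPM in the C-coded libraries. Not all high-numbered members did so: Hoxd9 lay at 8.99 to 11.7 CPM in LDRG, 10.3 to 12 CPM in L-coded libraries, and at 5.86 to 9.75 CPM in the C-coded libraries. Hoxa10 had 39.7, 39.5, 42.5, 42.9, 42.1 and 35.5 CPM in LDRG libraries, against 31.7, 26.9 and 30 CPM in L-coded libraries (log2 difference 0.44, SE 0.08, adjusted p = 0.00158), and 0 to 0.164 CPM in the C-coded libraries. Hoxc10 lay at 8.52 to 12.5 CPM in LDRG libraries, against 9.06 to 10.4 CPM in L-coded libraries and was not called (log2 difference 0.05, SE 0.09, adjusted p = 0.701); it had no count in the 4 C-coded libraries. Between the LDRG and L-coded sets part of the Hox genes were called. Hox A had 3 of 10 genes higher and 1 lower, and Hox B 4 of 8 higher. Hox C had 2 of 7 lower, and Hox D 2 of 7 lower. Over all genes tested 21.3% were higher and 22.7% lower, and clusters this small were not tested against those shares. Hoxb9 had 22.9, 21.6, 22.9, 19.7, 20.9 and 18.6 CPM in LDRG libraries, against 15.2, 11.7 and 9.54 CPM in L-coded libraries (log2 difference 0.76, SE 0.10, adjusted p = 0.000325), the largest of the rises with no overlap, beside Hoxb8 (0.64), Hoxb7 (0.47), Hoxa9 (0.36) and Hoxa7 (0.33). Hoxb3 was called higher (0.78), with an overlap of the sets. The call of Hoxb7 was lost without the cKO or the M-coded flox L library, and that of Hoxb3 without either flox L library. In the fit of 13 untreated libraries Hoxa10, Hoxa9, Hoxb9 and Hoxb3 kept their direction and were not called (adjusted p = 0.203, 0.108, 0.164 and 0.116).

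The most posterior Hox genes measured went down instead. Hoxd10 had 1.28, 1.18, 1.42, 2.06, 1.06 and 0.4 CPM in LDRG libraries, against 4.58, 2.7 and 8.93 CPM in L-coded libraries (log2 difference -2.12, SE 0.48, adjusted p = 0.00645). Hoxd11 had 0.735, 0.797, 0.314, 0.726, 0.316 and 0 CPM in LDRG libraries, against 1.7, 2.06 and 4.7 CPM in L-coded libraries (log2 difference -2.65, SE 0.85, adjusted p = 0.0312), Hoxc11 had 0.115, 0, 0, 0.114, 0.129 and 0 CPM in LDRG libraries, against 0.701, 0.609 and 1.92 CPM in L-coded libraries (log2 difference -3.99, SE 0.94, adjusted p = 0.00815), and Hoxa11 lay at 0.0569 to 0.256 CPM in LDRG libraries, against 0.433 to 0.853 CPM in L-coded libraries (-2.17). Each of these 4 genes was low everywhere, and the sets were apart for each. The CFA libraries spanned both sets for Hoxd10 (0.825 to 8.71 CPM), while the C-coded libraries were at 0 to 0.0596 CPM. With the replicate number as a block, or within the flox libraries alone, no Hox D cluster gene was called. Hoxc6, the other lower gene of Hox C, lay at 10.2, 11.8, 4.52, 3.45, 4.29 and 3.28 CPM in the LDRG libraries, against 9.71, 12.4 and 10.7 CPM in the L-coded libraries, with cKO libraries 1 and 2 of the LDRG set at the L-coded level. Calls were lost for Hoxc6 when 1 of 5 libraries (any flox library of either set) was left out, and for Hoxd11 without LDRG library cKO 3 or flox 2 or without the M-coded flox L library.

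**Figure D3:**
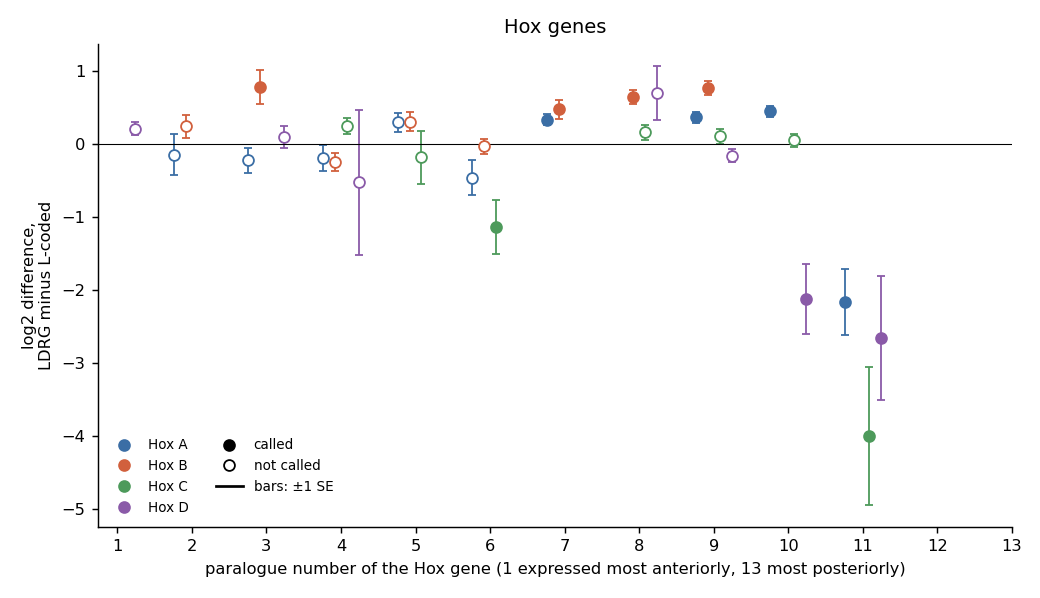
Each point is a Hox gene at its log2 difference, LDRG minus L-coded (bars ±1 SE), placed by its paralogue number; filled points were called and open points were not. Called genes numbered 7 to 10 of Hox A and Hox B lie above 0, at 0.33 to 0.76, while Hoxd10 and the called genes numbered 11 lie between -2.12 and -3.99.

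Some single genes differed by more than any list of ganglion genes. Gpr137b-ps (chromosome 13, 12615057 to 12650388, minus strand), annotated as a transcribed pseudogene in GENCODE vM21, had no count in the 6 LDRG libraries and 26, 27.8 and 30.8 CPM in the L-coded libraries, at least 3850-fold lower. It was also at 0 in the 8 CFA libraries and at 24.3 to 32.5 CPM in the C-coded libraries. Zfp939 and Zscan30, also annotated as pseudogenes, were at 0 in the LDRG set and at 3.8 to 4.62 CPM and 2.21 to 2.73 CPM in the L-coded set, at least 587-fold and 339-fold lower. Slfn14, an endonuclease of platelets and reticulocytes, and Wfdc21 were at 0 likewise, at least 621-fold and 736-fold lower. Gpx1, glutathione peroxidase 1 (chromosome 9, 108338903 to 108340343, plus strand), had 0.13, 0.0427, 0.0827, 0.057, 0.0862 and 0.0571 CPM in LDRG libraries, against 80.5, 138 and 68.5 CPM in L-coded libraries (log2 difference -10.23, SE 0.30, adjusted p = 9.01e-07); the CFA libraries ranged over 0.0433 to 43.2 CPM. In all, 9 genes had no count in any LDRG library and at least 100 counts in each L-coded library, and 0 genes the reverse. For 2405 genes (14.3% of those tested) all 14 libraries of the LDRG and CFA table lay apart from all 7 con/ko libraries, 1220 of them higher and 1185 lower.

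On the other side, Dlx1as, an antisense transcript of the Dlx1 locus, had 4.41, 4.91, 3.79, 4.02, 4.41 and 4.04 CPM in LDRG libraries, against 0.403, 0.297 and 0.448 CPM in L-coded libraries (log2 difference 3.46, SE 0.19, adjusted p = 1.21e-05), and 2.57 to 3.96 CPM in the CFA libraries against 0.265 to 0.345 CPM in the C-coded libraries. The strand used in counting is not stated in the sources used here, so its reads and those of Dlx1 cannot be told apart; the same holds for the antisense gene AV099323 (log2 difference 4.51, SE 1.19, adjusted p = 0.0136), which was not called without the M-coded flox L library (4.26, adjusted p = 0.0568). Aste1 (chromosome 9, 105395392 to 105412229, plus strand) had 26.6, 30, 30, 30.1, 32.5 and 28.8 CPM in LDRG libraries, against 5.34, 4.89 and 5.49 CPM in L-coded libraries (log2 difference 2.51, SE 0.08, adjusted p = 1.29e-06). Of the CFA libraries 2 lay at the LDRG level of Aste1 (28.9 and 30.3 CPM) and the other 6 at 5.23 to 7.59 CPM. Chaer1, a long noncoding RNA, lay at 2.19 to 3.77 CPM in LDRG libraries, against 0.144 to 0.283 CPM in L-coded libraries. Rbfox1, a splicing regulator of neurons, had 197, 219.8, 205, 206, 211 and 218 CPM in LDRG libraries, against 68.9, 72 and 70.1 CPM in L-coded libraries (log2 difference 1.58, SE 0.04, adjusted p = 7.83e-07). The C-coded libraries lay at 69.5, 82.9, 158.6 and 165.6 CPM for Rbfox1 and the CFA libraries at 48.2 to 191 CPM, so both levels occurred within each of these sets. Gabrg1, a subunit of the GABA-A receptor, Dipk2a and Micu3, a regulator of mitochondrial calcium uptake, differed by 1.03, 0.996 and 0.98, and the long noncoding Snhg14 by 1.08. Rpl7-ps8, a ribosomal protein pseudogene (2.62), and Cckbr, the cholecystokinin B receptor (2.39), were among the largest rises; the call of Cckbr was lost without any 1 of the 3 L-coded libraries.

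Several called rises rested on unequal levels within a set. Rps6ka3, the kinase RSK2, had 292, 310.1, 311, 301, 288 and 300.1 CPM in LDRG libraries, against 234, 97.1 and 20.4 CPM in L-coded libraries (log2 difference 1.46, SE 0.52, adjusted p = 0.0475). Hsd3b7, an enzyme of bile acid synthesis, had 1.17, 0.0569, 5.76, 1.12, 6.67 and 1.16 CPM in LDRG libraries, against 0.313, 0.134 and 0.101 CPM in L-coded libraries (log2 difference 3.85, SE 1.33, adjusted p = 0.042). Pus3, a pseudouridine synthase, had 0.605, 12.4, 0.43, 7.05, 7.41 and 6.76 CPM in LDRG libraries, against 0.194, 0.995 and 0.708 CPM in L-coded libraries (log2 difference 3.47, SE 1.12, adjusted p = 0.0331). The LDRG and L-coded libraries overlapped for Hsd3b7 and for Pus3. With the C-coded libraries in place of the L-coded ones, Hsd3b7 was at -1.286 and Pus3 at -0.1499. Leaving out a single library ended the call of Hsd3b7 and of Pus3 for 6 of the 9 libraries, all 3 L-coded ones included, and that of Rps6ka3 for 7, all but the M-coded L libraries. Over the LDRG libraries alone, 67 genes had 0 counts in at least 1 library and 100 or more in another.

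**Figure D4:**
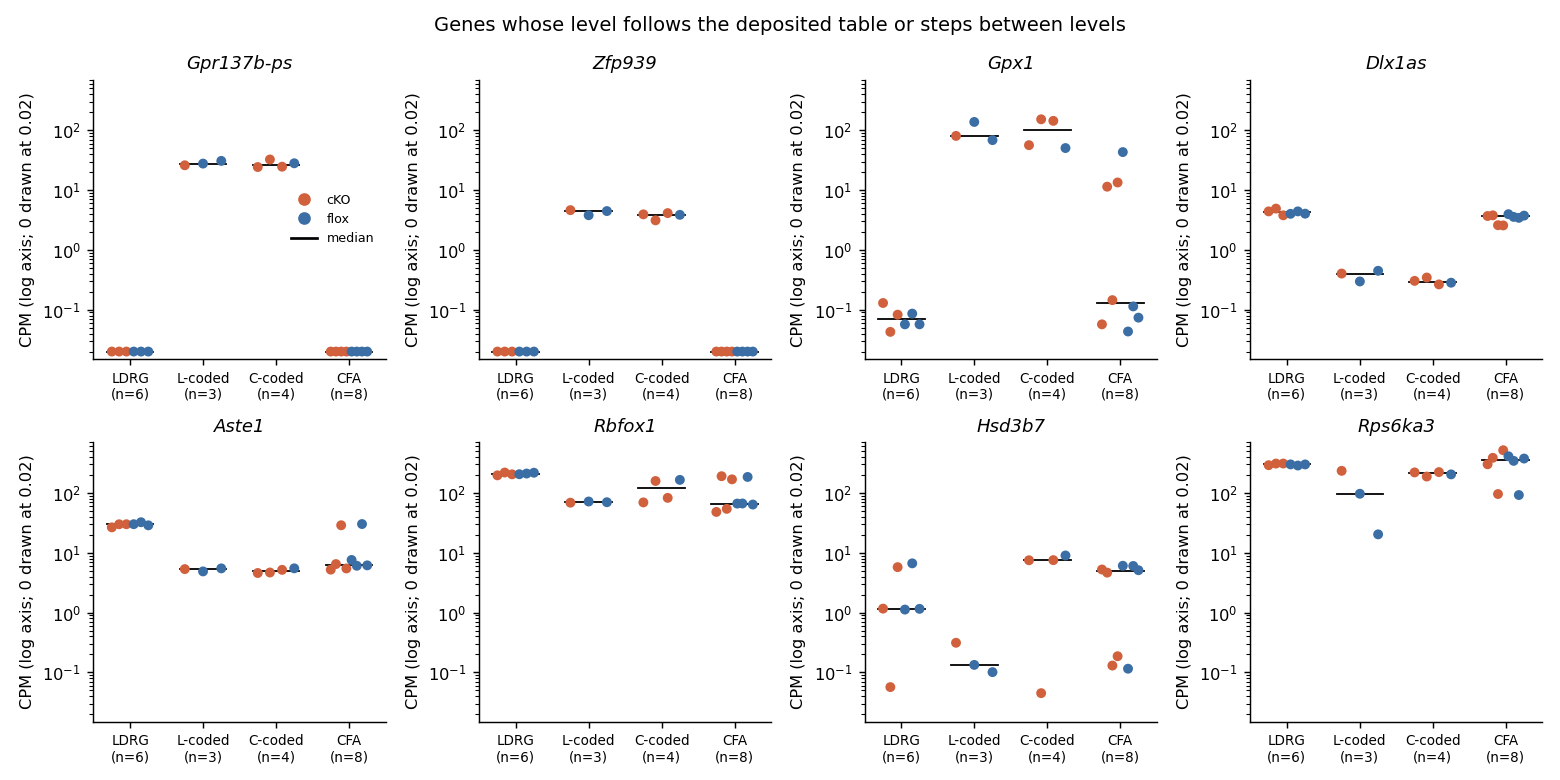
Levels in CPM (log axis, 0 drawn at 0.02) of 8 genes in every library, cKO red and flox blue, with the median as a bar. Gpr137b-ps and Zfp939 are at 0 in all 14 LDRG and CFA libraries, Dlx1as is higher in all 14, Aste1 and Rbfox1 keep 1 level within the LDRG and within the L-coded libraries and vary among the CFA libraries, and Hsd3b7 and Rps6ka3 step between levels within sets.

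Set beside the L-coded libraries in a fit of the 13 untreated libraries (16706 genes tested), the C-coded libraries differed at 1442 genes (8.63% of those tested, 480 higher and 962 lower), against 6732 for LDRG minus L-coded and 7568 for LDRG minus C-coded; these contrasts share libraries. For C-coded minus L-coded the list medians were -2.89 for neutrophils and -2.64 for red blood cells, -2.05 for the cell cycle and -0.0191 for all sensory neurons. All 15 neutrophil genes and 15 of 16 cell cycle genes were called lower in the C-coded than in the L-coded libraries. For red blood cell genes it was 6 of 12. Hba-a1, Hba-a2, Hbb-bt and Hbb-bs differed by -0.352, -0.356, -0.454 and -0.376 and were not called. The red blood cell sums overlapped (1806 to 2904 CPM C-coded, 1668 to 4598 CPM L-coded). The fibroblast and meninges lists differed by medians of 0.161 and -0.18.

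Whether the genotypes differed unequally in the 2 sets was tested as an interaction over 17277 genes, with 1 cKO library on the L-coded side that is assumed to vary like the others. It was called for 15 genes (0.0868% of those tested, 10 higher and 5 lower), against 1404 at an unadjusted p under 0.05, by the edgeR quasi-likelihood test and the same adjustment. Tmem45b was not among them. The count was 67 without the M-coded flox L library, 30 without the F-coded one and 9 without LDRG cKO library 3. Micu3 was, with an interaction of -1.061 beside 157, 174, 158, 169, 185 and 168 CPM in LDRG libraries, against 126, 67.3 and 61.9 CPM in L-coded libraries, and so was the neuropeptide precursor gene Vgf (-1.049), with 97.8, 94.6, 101, 136, 133 and 150.4 CPM in the LDRG libraries, against 97.3, 72.9 and 61.6 CPM in the L-coded libraries.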

How the data were processed

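Per the labels' protocols, total RNA was extracted with TRIzol, poly-A RNA was captured on oligo(dT) beads, and paired reads of 150 bases were made on a T7 sequencer. Per the submitters' processing notes, fastp 0.23.2, BWA 2.2.1, SAMtools 1.14, DESeq2 1.40.2 and the mm10 build were used; the counting tool and its strand setting are not given in the sources used here. The authors deposited raw counts per gene in 2 tables, one of 14 libraries (24524 genes) and one of 7 (24512 genes). Low counts of 4 were commoner than counts of 3 in both tables (4068 against 2096 values in the table of 14, 1779 against 1349 in the table of 7); the cause was not tested, and fragments counted more than once would raise the chi-square values and lower the fold bounds that rest on a floor of 3 counts.

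Groups come from sample titles and the library names in the descriptions; the labels' genotype field, which is the same for all libraries, was not used. The 24381 shared genes were filtered with filterByExpr (minimum count 10, total 15), scaled by TMM and tested with edgeR 4.0.16 in R 4.3.3 by quasi-likelihood F tests with name set and genotype as terms; genes at a Benjamini-Hochberg adjusted p under 0.05 were called. CPM use TMM-adjusted library sizes over all 21 libraries. Positions are from GENCODE vM21 on mm10, which matched 23573 symbols (96.7%); promoters are from RefSeq, GRCm38.p6, first listed start per gene. The procedure was tested on simulated counts.

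Named genes are Tmem45b and Mrgprd, the 10 largest called rises and falls where a set averaged 1 CPM or more, and again where it averaged 50 CPM or more, up to 4 members of each list with the smallest p, and all haemoglobin and Hox genes tested; unnamed gene models and sex-linked genes were left out, and a few genes under the rule are not reported here. Xist, Ddx3y, Trpm8 and Vgf lie outside that rule, and they were picked with their values known. The members of the comparison and the gene lists were chosen with earlier results of these data known, and 6 marrow and blood lists were added after values were seen. A list of mitochondrially encoded genes had no member in both tables. Same-numbered libraries deviated together little (correlations -0.0873 to 0.0977 over same-numbered pairs), so the numbers were not taken to pair them. Alternatives were other size factors, DESeq2 1.42.0, other filters, a replicate block, no genotype term, single genotypes, other sets of libraries and leaving out each library.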

Additional observations from a re-analysis of the deposited data

Results flagged for a closer look

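Among the 6 LDRG libraries, 36 of 257 named genes and 8 of 54 list sums had 1 library set apart from the other 5 by a gap that took up most of their range (Dixon's criterion). Chance gives about 1 in 20 for normally distributed values of 1 group. Here both genotypes were pooled, and several genes, such as Ltf and Elane, had counts in 1 library only. The numbers flagged therefore cannot be measured against that rate. LDRG flox library 3 held 12 of the genes and 5 of the sums.

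LDRG cKO 1 stood apart as the highest (CPM) for Ltf 1.124, Klf1 0.2593, Ppbp 1.412 and Ryr1 9.524 and as the lowest (CPM) for Cacna2d1 351.4. LDRG cKO 2 stood apart as the highest (CPM) for Chil3 1.537, Vpreb3 0.04268, Bglap 0.02845 and Treml1 0.1423. LDRG cKO 3 stood apart as the highest (CPM) for Spib 0.06619 and Fmod 3.194 and as the lowest (CPM) for Pax5 0, Rrm2 0.8771 and Hoxb4 3.558. LDRG flox 1 stood apart as the highest (CPM) for Elane 0.05697, Mcpt8 0.05697 and Fcnb 0.05697 and as the lowest (CPM) for Hoxa2 0.5412. LDRG flox 2 stood apart as the highest (CPM) for Snhg14 212, Iglc1 0.05746, Cd79a 0.5028, Ndufb1 15.67, Psmd13 98.58 and Fabp7 144. LDRG flox 3 stood apart as the highest (CPM) for Sprr1a 23.9, Fabp4 16.6, Pck1 1.57, Plin4 5.622, Rag1 0.2283, Gfra2 198.1, Hlf 13.04, Anxa1 8.334, Cnn1 0.8847, Myh7 2.126 and Mb 6.892 and as the lowest (CPM) for Hoxb5 14.47. Many of these levels were below 2 CPM.

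The list sums set apart were skeletal muscle (967.4 CPM, the highest) in LDRG cKO 1, nonmyelinating Schwann cells (3251 CPM, the lowest) and platelets and megakaryocytes (69.01 CPM, the highest) in LDRG flox 2, nonpeptidergic Mrgprd neurons (4229 CPM, the highest), C-low-threshold mechanoreceptors (1307 CPM, the highest), endothelium (232.1 CPM, the highest), pericytes and smooth muscle (377.7 CPM, the highest) and adipocytes (84.64 CPM, the highest) in LDRG flox 3.

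The genotype difference differed between the 2 sets for 15 genes, by the interaction test, of 17277 tested; the L-coded set has 1 cKO library. The difference of the log2 genotype differences (cKO minus flox in the LDRG set, minus cKO minus flox in the L-coded set) was Zfp91 7.244, Pnma2 3.44, Kcnb2 -4.009, Syt7 1.857, Ahdc1 1.691, Nucks1 0.9582, Cdc14b 1.368, Micu3 -1.061, Tmem169 -2.175, Hoxd8 2.079, Hdhd2 0.8932, Tsc1 1.009, Cxxc4 -1.304, Letmd1 0.7375 and Vgf -1.049. Several of these genes sat at a low or a high level across all 21 libraries. Kcnb2, a potassium channel gene, lay at 10.9, 9.82, 10.1, 10.5, 8.52 and 9.22 CPM in the LDRG libraries, against 179, 10.3 and 10 CPM in the L-coded libraries, and 2 of the 8 CFA libraries lay at 296.5 and 247.4 CPM. Zfp91, a zinc finger gene, lay at 130.3, 143, 131, 135, 135 and 131 CPM in the LDRG libraries, against 0.642, 92.8 and 100.5 CPM in the L-coded libraries, and 1 CFA library of the LDRG table lay at 1.703 CPM. The cause of the steps was not tested.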

How the results depend on the processing

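The count of 7416 called genes stayed within 1.5 times under other size factors (7403), DESeq2 (7768), no filter (7203), a mean of at least 5 CPM (5788), no genotype term (7550), flox libraries only (5143), 13 or 21 libraries in the fit (6732 and 6932), all 7 con/ko libraries (7838) and C-coded libraries in place of L-coded (7310). It was 3288 with cKO libraries only, and 5816 to 7154 when a single library was left out. Of 4 alternatives chosen after the data were seen, leaving out both M-coded L libraries gave 3241, leaving out the F-coded one and the sex chromosomes 6412, not counting genes with a 5-fold range within a set 7309, and not counting blood, immune, marrow, meninges and bone list members 7292. With C-coded libraries 5107 of 7300 calls remained and 422 changed sign; with cKO libraries only 3075 of 7393 remained and 16 changed sign.

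Same-numbered libraries were not taken as pairs; with the replicate block 6073 genes were called, and the Tmem45b genotype difference was -0.9959 (adjusted p = 0.136; -1.033 to -0.9486 when a library was left out). The interaction count of 15 was 151 by DESeq2, 9 to 67 when a library was left out (67 without the M-coded flox L library, 30 without the F-coded one, 9 without LDRG cKO 3), 13 with no filter and 16 at 5 CPM.

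Of 223 named genes called, 201 kept the call whichever single library was left out, and 148 of 257 named genes kept both their direction and their side of the threshold under every alternative. Values that changed sign were, with C-coded libraries: Hsd3b7 -1.286, Pus3 -0.1499, Car3 1.016, Slc17a8 0.001421, Gfra2 0.01967, Top2a 0.1827, Cspg5 -0.07748, Hoxb7 -0.1283, Hoxb3 -0.498, Hoxc6 1.912, Hoxd10 5.406, Hoxd11 8.188, Hoxd1 -0.3216, Hoxd8 -0.162, Psmb9 0.5173, H2-Q6 0.5242, H2-T23 0.2273, Tap2 0.2389, Rxfp1 1.598, Hoxa5 -0.537, Hoxa6 0.2212, Hoxb5 -0.3447, Hoxb2 -0.4256, Hoxd9 0.3406 and Hoxd4 0.282. With all 7 con/ko libraries they were Hsd3b7 -0.4294, Hoxb3 -0.04286, Hoxc6 0.1185, Hoxd1 -0.1158, Rxfp1 0.4132, Hoxa5 -0.2342, Hoxb5 -0.1049, Hoxb2 -0.2028 and Hoxd9 0.06027. With cKO libraries only they were Plin4 0.6578, Car3 0.3152, Ryr1 0.9818, Casq1 1.111, Mb 2.506, Hoxa2 0.08775, Hoxc5 0.7297 and Hoxd3 -0.01452. With flox libraries only they were Mrgprd -0.02598, Hoxb6 0.0008654 and Hoxc10 -0.007142, and with the replicate block Hoxb6 0.01076. When 1 library was left out, the genes that changed sign ranged over Mrgprd -0.026 (without the cKO L library) to 0.1282 (without the M-coded flox L library), Mb -3.246 (without the cKO L library) to 1.801 (without the M-coded flox L library), Hoxa2 -0.2922 (without the cKO L library) to 0.04243 (without LDRG flox 1), Hoxb6 -0.1101 (without LDRG flox 2) to 0.00177 (without LDRG flox 3), Hoxc10 -0.007157 (without the cKO L library) to 0.08895 (without LDRG flox 3), Hoxc5 -0.6525 (without the cKO L library) to 0.001019 (without the M-coded flox L library). Each list counted once under each alternative gave 1133 list medians. Of these, 126 moved by more than the spread among the libraries of a name set, with both genotypes pooled. The causes were not tested.

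The L-coded side has 3 libraries, 1 of them cKO, which limits every interval; where a single L-coded library remained, it was assumed to vary like the others. Genes under 1 CPM also rest on few counts. Library set, deposited table and any change of dissection or laboratory between the tables cannot be told apart.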
